A study of Mus musculus with 8 samples.

Results

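The clustered histone genes were the 67 gene symbols, of 23302 in the deposited table, that begin with Hist1h, Hist2h, Hist3h or Hist4h. They were read in RNA of mouse splenic naive B cells, in 8 libraries of C57BL/6 mice. The 4 groups of 2 libraries were tumor-bearing and non-tumor-bearing mice of the genotype labelled B-EBi3- (written BEBi3-/- in the series' design), and tumor-bearing and non-tumor-bearing WT mice. The non-tumor-bearing groups (nontumor) are those whose tumor status is given as WT, a reading of the labels on which every tumor comparison rests. Ebi3 encodes a subunit shared by the cytokines IL-35 and IL-27; the labels do not say which Cre or promoter removed it, how old the mice were, and do not tie libraries to animals. The p-values therefore speak only of the spread between libraries, which may be technical. Of the 67 members, 17 had a mean of at least 10 normalized counts over the 8 libraries and entered the tests, which ran on 13011 genes. The other 50 did not pass this filter and 5 of them (Hist1h2aa, Hist1h2an, Hist1h2ap, Hist1h2ba and Hist1h4n) had 0 reads in every library.

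Histones are the proteins around which DNA is wound: H2A, H2B, H3 and H4 form the core of the nucleosome, and the linker histone H1 binds where DNA enters and leaves it. Most genes in the clusters are replication-dependent, which means that they are transcribed in S phase under the coactivator NPAT. Their mRNAs end in a conserved stem-loop, bound by the protein SLBP, in place of a poly(A) tail. Some members also make transcripts that read past the stem-loop and end in a poly(A) tail, in differentiated or non-dividing cells among others. Per the labels, the libraries were made with a kit that selects poly(A) RNA, in which mRNAs without a tail are poorly captured. A low level here therefore need not mean a low level of the histone mRNA in the cell, which was not measured.

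The end of the transcript is what separates these members from other mRNAs, and a letter search of the GENCODE M21 transcripts (build GRCm38) found the 16-base stem-loop in 44 of the 67 members, against 0.167% of 58797 protein-coding transcripts. Members without a match need not lack it. The models of Hist1h1b, Hist1h2ai, Hist1h4k and others end at the stop codon, which leaves no 3′ UTR to search. The search also took only a fixed letter pattern, so a variant stem-loop would be missed. The stem-loops of 6 tested members are given 5′ to 3′ with the stem and loop in capitals, because they include those with the most reads, those that changed in opposite directions, and an almost identical pair of genes. All lie in the 3′ UTR, after the stop codon.
Hist1h1c, chr13:23739507-23739532, plus strand: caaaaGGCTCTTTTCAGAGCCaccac
Hist3h2a, chr11:58955167-58955192, plus strand: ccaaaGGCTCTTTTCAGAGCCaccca
Hist4h4, chr6:136803993-136804018, minus strand: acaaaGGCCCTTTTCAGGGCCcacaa
Hist1h4m, chr13:21812124-21812147, plus strand: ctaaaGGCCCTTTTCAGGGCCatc
Hist2h2aa1, chr3:96246027-96246052, plus strand: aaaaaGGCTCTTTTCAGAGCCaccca
Hist2h2aa2, chr3:96239779-96239804, minus strand: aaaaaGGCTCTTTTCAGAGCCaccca
The annotated transcript ended 3 bases after this stretch in Hist1h4m and 35 bases after it in Hist2h2aa1 and Hist2h2aa2. In Hist1h1c, Hist3h2a and Hist4h4 it ran on for a further 840, 1643 and 2445 bases.

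A poly(A) signal (AATAAA or ATTAAA) stood in the last 50 bases of an annotated transcript of 16 of the 67 members. Among protein-coding transcripts, counted by transcript and not by gene, 50.2% had it. For Hist1h2be, Hist1h2bp, Hist1h2bq and Hist2h3c1, which have several annotated transcripts, the transcript with the signal need not be the longest. The signals of 4 tested members are in capitals in the ends of their 3′ UTRs, shown because these members were among those with the most reads.
Hist1h1c, chr13:23740334-23740363, plus strand: atgcttctAATAAAaagcgtttagttttca
Hist3h2a, chr11:58956789-58956818, plus strand: atatgcccAATAAAataagagtacgtgtat
Hist2h2be, chr3:96223709-96223738, plus strand: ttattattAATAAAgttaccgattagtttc
Hist1h4i, chr13:22040636-22040664, minus strand: ctgtttacATTAAAagtattctatgctaa
The 16 members with such a signal held 76.1% of all clustered histone reads, with a median level of 23.9 normalized counts (0.238 to 1064). The 51 members without one held 23.9%, with a median of 2.22 (0 to 386.7). These members also shared more sequence with other genes. The median share of short sequence words found in no other gene was 66.3% with the signal and 38.1% without it. The part of shared sequence in the difference in level was not tested. Of the 17 tested members 9 had the signal. These are GENCODE models: RefSeq gives Hist3h2a 508 bases where GENCODE gives 2146, and Hist4h4 439 where GENCODE gives 2863. Which transcript models the authors used is not stated.

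Ebi3, the targeted gene, had 8.70 and 11 normalized counts in B-EBi3- tumor, 12.8 and 11.5 in B-EBi3- nontumor, 201 and 164 in WT tumor and 8.94 and 10.97 in WT nontumor. Its level separated the genotypes among tumor mice; among nontumor mice it was near 10 in both, so there it does not check the genotype label. Depth was 21291892 to 28297319 reads per library. The WT tumor libraries stood apart: their titles begin with IV where all others begin with OT, Xist was at 19760 and 26190 normalized counts against at most 18.3 elsewhere, and the Y-linked Kdm5d, Uty and Eif2s3y were at 0 in both. In the 3 comparisons that use the WT tumor libraries (tumor effect in WT, genotype in tumor mice, interaction) sex and title prefix cannot be told apart from the effect named. Neither differs between the groups of the other 2 comparisons.

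The clustered histone genes were a very small part of these libraries. They took 0.0124% and 0.0123% of all reads in B-EBi3- tumor (3502 and 3308 reads, Wilson 95% intervals 0.0120 to 0.0128% and 0.0119 to 0.0127%), and 0.0134% and 0.0124% in B-EBi3- nontumor (2856 and 2764 reads). In WT tumor they took 0.00931% and 0.00834% (2551 and 2266 reads, 0.00895 to 0.00968% and 0.00800 to 0.00869%), against 0.0129% and 0.0151% in WT nontumor (3374 and 3283 reads). Both WT tumor libraries were below all 6 others. These intervals cover counting error only. For comparison, the histone genes outside the clusters, most of which encode replacement variants, took 0.371 ± 0.00318%, 0.406 ± 0.0127%, 0.292 ± 0.0168% and 0.407 ± 0.0226% of reads in B-EBi3- tumor, B-EBi3- nontumor, WT tumor and WT nontumor (mean ± SD, n = 2 each; 13 genes in the table).

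Few members carried most of the reads. Hist1h1c alone held 32.5% of the clustered histone reads over all libraries, Hist3h2a 16.4%, Hist1h2bc 11.8%, Hist2h2be 10.1% and Hist4h4 6.25%, together 77.1%. Per kilobase of the longest GENCODE transcript the order was different. Hist1h1c came first with 682 normalized counts per kilobase, then Hist1h2bc with 335, Hist2h2aa1 (whose reads are shared with its copy Hist2h2aa2) with 238, Hist3h2a with 235, Hist1h4i with 211, Hist2h2be with 114, Hist3h2ba with 95.7, Hist1h4m with 79.0 and Hist4h4 with 59.4 (means over the 8 libraries). The order depends on the models: by the RefSeq gene span, which includes introns, Hist3h2a had 993 per kilobase, Hist4h4 388 and Hist1h2bc 46.7. The large cluster on chromosome 13, Hist1, has 53 members of which 10 were tested. Hist2 on chromosome 3 has 10 members with 4 tested, Hist3 on chromosome 11 has 3 with 2 tested, and Hist4 on chromosome 6 is Hist4h4 alone.

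The summed level of all 67 members was 3039 ± 9.90 normalized counts in B-EBi3- tumor and 3584 ± 91.2 in B-EBi3- nontumor, and 1904 ± 173 in WT tumor and 4138 ± 518 in WT nontumor (mean ± SD, n = 2 each). The class sums did not share this pattern equally, and single members weighed on them. The H1 sum was 306.4 ± 51.8 in WT tumor against 1630 ± 169 in WT nontumor, of which Hist1h1c gave 290.2 and 1576. The H4 sum was 383 ± 19.8 in WT tumor against 424 ± 75.9 in WT nontumor. Of this Hist4h4, which rose, gave 318.8 and 83, so the other H4 members together were lower in WT tumor. The H3 sum was low in every group, at 46.5 ± 6.77 in B-EBi3- tumor, 58.1 ± 17.3 in B-EBi3- nontumor, 54.5 ± 2.60 in WT tumor and 60.5 ± 1.75 in WT nontumor. Of the H3 sum Hist2h3c1 gave 47.02 in WT tumor and 26.45 in WT nontumor. In the Hist1 cluster the sum was 645 ± 88.7 in WT tumor against 2804 ± 421 in WT nontumor, and in the Hist2 cluster 462 ± 30.0 in WT tumor against 565 ± 31.7 in WT nontumor.

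**Figure D1:**
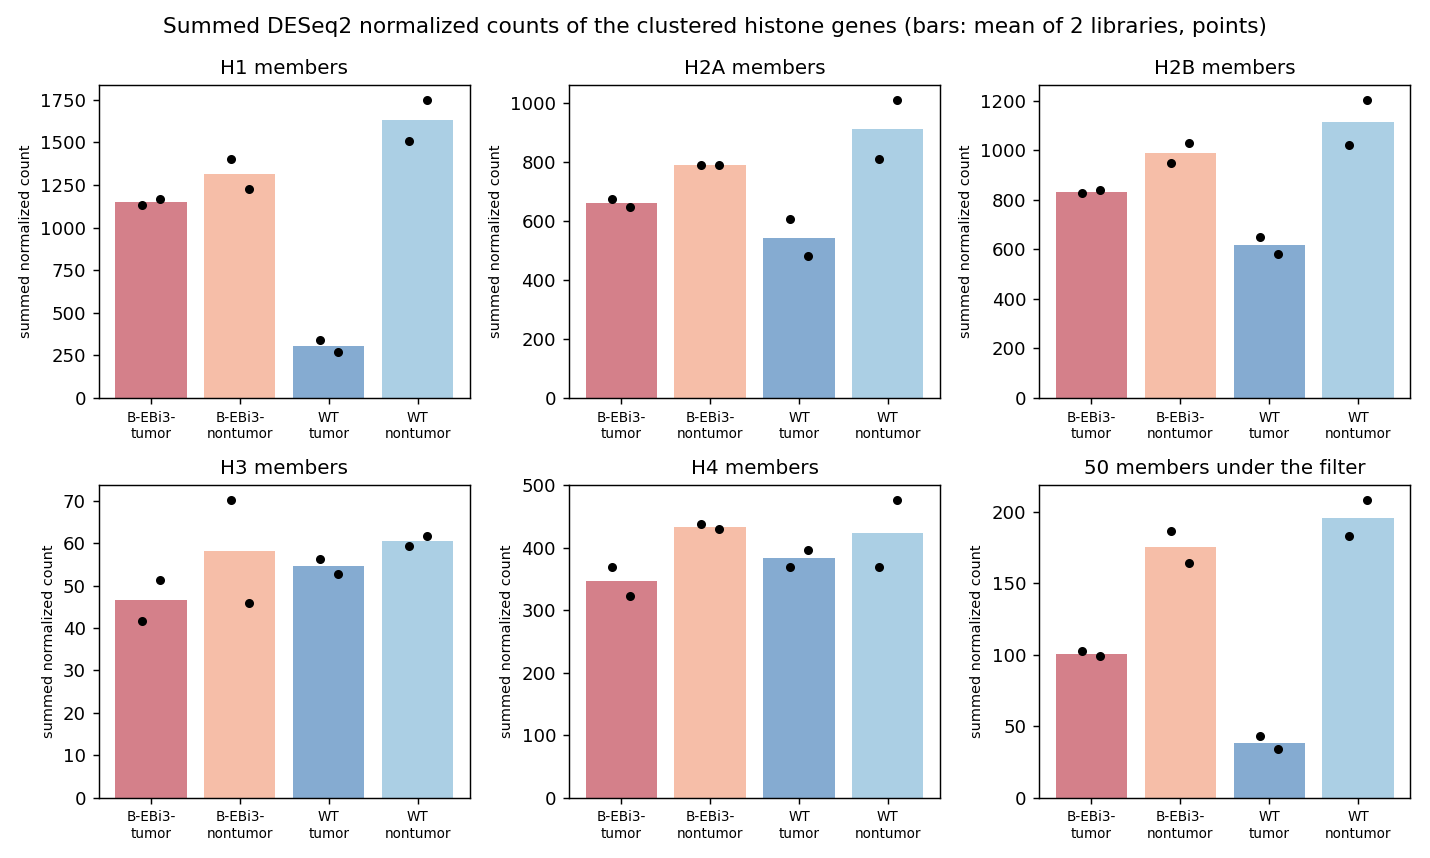
Summed DESeq2 normalized counts (y axes, from 0) of the members of each histone class and of the 50 members under the filter, by group (x axes); bars are means of 2 libraries and points are libraries. The H1 sum and the sum of the 50 low members are lowest in WT tumor (306.4 and 38.4), while the H4 sum there (383) lies within the range of the other groups. Hist4h4 alone gives 318.8 of that H4 sum.

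The 50 members that were too low to test can be read as a sum. They gave 103 and 99.0 normalized counts in B-EBi3- tumor (118 and 108 reads), against 186.5 and 164 in B-EBi3- nontumor (146 and 129 reads). In WT tumor they gave 42.9 and 33.8 (54 and 43 reads), against 183 and 208.5 in WT nontumor (164 and 152 reads). The sums did not overlap between tumor and nontumor in either genotype, and those of WT tumor were below those of B-EBi3- tumor. With 2 libraries a group such separation is common: tumor libraries were all above nontumor ones in 36.6% of tested genes and all below in 39% in B-EBi3-, and in 45.8% and 45.6% in WT. Among the 17 tested members, 3 were all above and 8 all below in B-EBi3-, and 3 and 12 in WT. Reads were found for 46 and 45 of the 67 members in B-EBi3- tumor, 49 and 50 in B-EBi3- nontumor, 38 and 34 in WT tumor and 52 and 47 in WT nontumor, although both tumor groups were sequenced more deeply than B-EBi3- nontumor. In these bulk samples fewer cells of a type and less RNA per cell cannot be told apart. The highest mean under the filter was 8.55 normalized counts (Hist1h1d) and the lowest above it 10.2 (Hist1h4c).

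In WT mice, 12 of the 17 tested members fell with the tumor (background 40.1% of 13011 genes lower) and 2 rose (background 39.6% higher), so that 14 were called where 79.8% of all tested genes were. The members' median log2 difference was -1.37, against 0.01 for all tested genes. In B-EBi3- mice 1 member fell (background 18.5%) and 1 rose (background 14.1%), 2 of 17 where 32.6% of all genes were called, with a median of -0.18 against -0.01 over all genes. All calls are from limma at a Benjamini-Hochberg adjusted p under 0.05, and log2 differences are of normalized counts plus 1. The members called were thus near the background in WT in number and mostly lower in direction, and in B-EBi3- they were fewer than the background. A count test by edgeR on the recovered reads called 15 members in WT (3 higher, 12 lower) and 2 in B-EBi3- (1 higher, 1 lower). Of all 13011 genes edgeR called 10435 in WT and 4489 in B-EBi3-. DESeq2 on the same reads called 10 members in WT (1 higher, 9 lower) and 2 in B-EBi3- (1 higher, 1 lower). Of all 13011 genes DESeq2 called 9687 in WT and 3694 in B-EBi3-. In WT it did not call Hist1h1e (adjusted p = 0.199), Hist1h2ac (0.105), Hist2h2aa1 (0.189) or Hist2h3c1 (0.117).

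**Figure D2:**
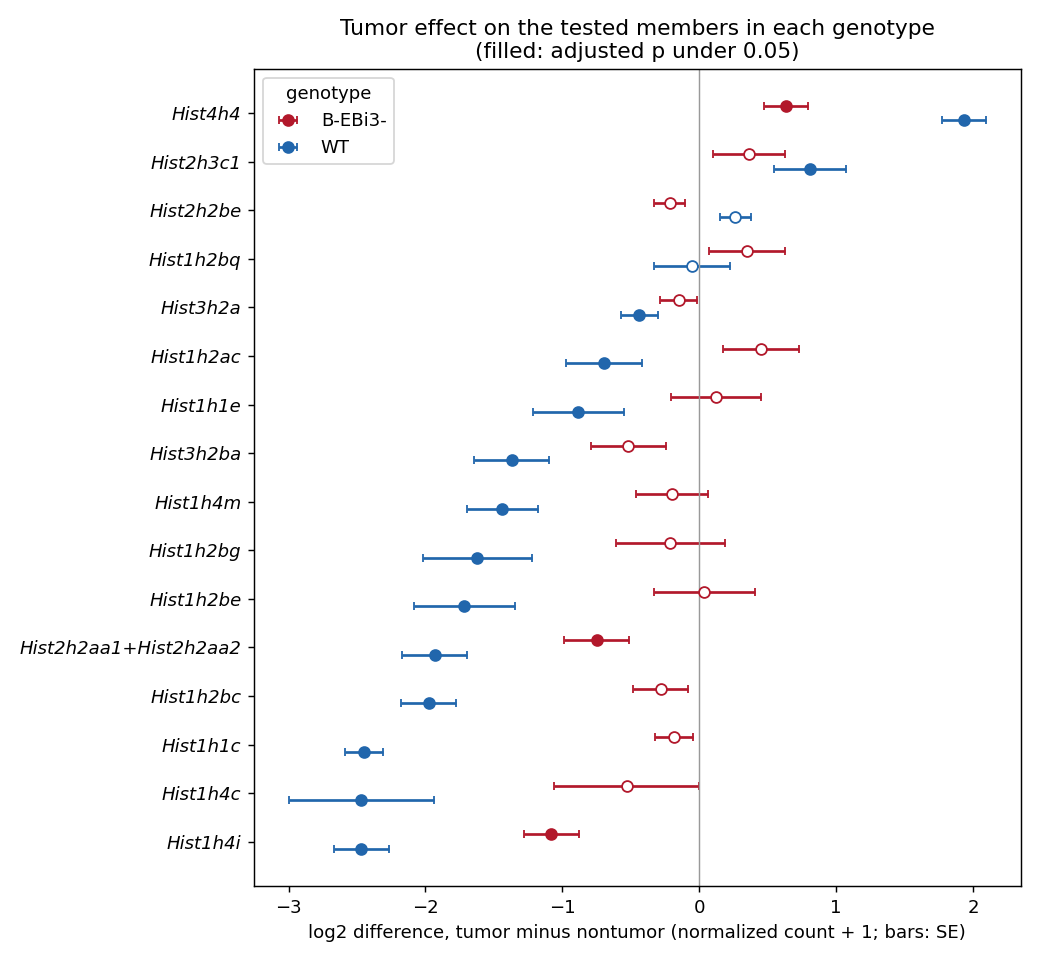
Tumor effect (x axis, log2 difference of normalized count plus 1, tumor minus nontumor; bars are limma standard errors) on the tested members in B-EBi3- (red) and WT (blue), with Hist2h2aa1 and Hist2h2aa2 summed; filled points passed an adjusted p of 0.05. In WT the points run from -2.47 (Hist1h4i) to 1.93 (Hist4h4), while in B-EBi3- they run from -1.08 (Hist1h4i) to 0.63 (Hist4h4).

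Among linker histones, Hist1h1c (H1.2; chr13:23738808-23740367, 1 exon) had the most reads of any member. It had 1100 and 1137 normalized counts in B-EBi3- tumor and 1356 and 1188 in B-EBi3- nontumor. It had 329.5 and 251 in WT tumor and 1460 and 1693 in WT nontumor. The WT tumor libraries stood far below all others, and the B-EBi3- groups did not overlap but lay close together. The tumor effect was -2.45 on the log2 scale in WT (SE 0.138, limma adjusted p = 1.32e-06) and -0.18 in B-EBi3- (SE 0.138, limma adjusted p = 0.323). The interaction, the tumor effect in B-EBi3- minus that in WT, was 2.26 (SE 0.195, limma adjusted p = 0.000135). Hist1h1e (H1.4) was low, with 17.4 and 20.2 in B-EBi3- tumor, 19.2 and 15.3 in B-EBi3- nontumor, 11.1 and 11.01 in WT tumor and 23.5 and 19.2 in WT nontumor. It fell in WT (log2 difference -0.88, SE 0.331, limma adjusted p = 0.0343), a call that was lost without B-EBi3- tumor replicate 1 or 2, WT tumor replicate 1 or 2 or WT nontumor replicate 1 (limma adjusted p of 0.0591 to 0.125). Hist1h1d (H1.3), under the filter, had 8.70 and 9.17 in B-EBi3- tumor, 10.2 and 7.64 in B-EBi3- nontumor, 0.794 and 4.72 in WT tumor and 13.4 and 13.7 in WT nontumor.

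Among H2A genes, Hist3h2a had the highest level and changed little. It had 471.5 and 454 normalized counts in B-EBi3- tumor and 494.5 and 532 in B-EBi3- nontumor, and 489.9 and 396 in WT tumor and 539.9 and 658.5 in WT nontumor. Tumor libraries were below nontumor ones in both genotypes, with a log2 difference of -0.15 in B-EBi3- (SE 0.135, limma adjusted p = 0.407) and -0.44 in WT (SE 0.135, limma adjusted p = 0.0146). The WT call was lost without WT tumor replicate 2 (adjusted p = 0.127) or WT nontumor replicate 2 (0.0944). Of its 31-base words 32.1% also occur in transcripts of its neighbour Trim17, which had 7.83 to 23.3 normalized counts per library. Hist1h2ac had 51.3 and 65.1 in B-EBi3- tumor, 39.6 and 44.6 in B-EBi3- nontumor, 41.3 and 35.4 in WT tumor and 49.2 and 79.6 in WT nontumor. Its tumor effect was 0.45 in B-EBi3- (SE 0.277, limma adjusted p = 0.227) and -0.70 in WT (SE 0.277, limma adjusted p = 0.0428). The WT call was lost without any of 6 libraries (B-EBi3- tumor replicate 1 or 2, B-EBi3- nontumor replicate 2, WT tumor replicate 1 or 2, WT nontumor replicate 2; limma adjusted p of 0.0503 to 0.283).

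Hist2h2aa1 and Hist2h2aa2 are neighbouring copies on opposite strands, and none of the 31-base words of Hist2h2aa2 was unique to it. Their values swapped in the WT tumor libraries: Hist2h2aa1 had 69.1 normalized counts in replicate 1 and 0 in replicate 2, while Hist2h2aa2 had 0 in replicate 1 and 44.0 in replicate 2. The value of a single copy is therefore uncertain, and so is the call of Hist2h2aa1 in WT (log2 difference -4.62, SE 1.49, limma adjusted p = 0.0181), which is among the 12 members counted as lower. Summed, a choice made after the data were seen, the pair had 130.5 and 115.5 in B-EBi3- tumor and 234 and 183 in B-EBi3- nontumor, and 69.1 and 44.0 in WT tumor and 188 and 243 in WT nontumor. Tumor libraries lay below nontumor libraries in both genotypes. Of the 31-base words 89.7% in Hist2h2aa1 and 100% in Hist2h2aa2 also occur in the annotated model Gm20634, so the sum is uncertain too. The summed pair fell by 0.75 in B-EBi3- (SE 0.24, limma adjusted p = 0.043) and by 1.93 in WT (SE 0.24, limma adjusted p = 8e-05), with an interaction of 1.18 (SE 0.34, limma adjusted p = 0.0177).

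Among H2B genes, Hist1h2bc, a spliced gene, had the highest level. It had 361 and 389 normalized counts in B-EBi3- tumor and 432 and 481 in B-EBi3- nontumor, and 163 and 123.5 in WT tumor and 457 and 687 in WT nontumor. Both WT tumor libraries were far below all others. The log2 difference was -0.28 in B-EBi3- (SE 0.2, limma adjusted p = 0.292) and -1.98 in WT (SE 0.2, limma adjusted p = 2.36e-05). In the annotated transcript of Hist2h2be, which has a long 3′ UTR with a poly(A) signal, the letter search found no stem-loop. Hist2h2be went the other way in WT. It had 269 and 245 in B-EBi3- tumor and 282 and 314.5 in B-EBi3- nontumor, and 354 and 348 in WT tumor and 304 and 281 in WT nontumor. Its libraries did not overlap in either genotype, with a log2 difference of -0.22 in B-EBi3- (SE 0.114, limma adjusted p = 0.166) and 0.26 in WT (SE 0.114, limma adjusted p = 0.0597), neither past the threshold. The interaction was -0.48 (SE 0.161, limma adjusted p = 0.0342), a call lost without any of the same 6 libraries as for Hist1h2ac in WT (limma adjusted p of 0.0647 to 0.14).

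The remaining H2B members were lower. Hist1h2bq had 68.7 and 77.0 normalized counts in B-EBi3- tumor, 42.2 and 76.4 in B-EBi3- nontumor, 65.1 and 56.6 in WT tumor and 60.4 and 65.8 in WT nontumor, with tumor and nontumor libraries that overlapped in both genotypes, and it shares 98.2% of its 31-base words with Hist1h2br. Hist1h2be had 17.4 and 17.4 in B-EBi3- tumor, 20.4 and 14.0 in B-EBi3- nontumor, 5.56 and 4.72 in WT tumor and 19.0 and 19.2 in WT nontumor. Only the WT tumor group stood apart in Hist1h2be, which fell in WT (log2 difference -1.72, SE 0.368, limma adjusted p = 0.00221). Hist1h2bg had 34.8 and 31.2 in B-EBi3- tumor, 46.0 and 31.8 in B-EBi3- nontumor, 6.35 and 14.9 in WT tumor and 34.7 and 30.2 in WT nontumor. It also fell in WT (log2 difference -1.62, SE 0.398, limma adjusted p = 0.00466), and shares 46.8% of its 31-base words with Hist1h2bc. Hist3h2ba had 50.5 and 50.4 in B-EBi3- tumor, 76.7 and 68.8 in B-EBi3- nontumor, 40.5 and 22.8 in WT tumor and 83.8 and 76.8 in WT nontumor. It was below nontumor in both genotypes, with -0.52 in B-EBi3- (SE 0.273, limma adjusted p = 0.167) and -1.37 in WT (SE 0.273, limma adjusted p = 0.00145).

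Only Hist2h3c1 was tested among the 12 H3 genes. It had 27.8 and 39.4 normalized counts in B-EBi3- tumor and 25.6 and 25.5 in B-EBi3- nontumor, and 47.6 and 46.4 in WT tumor and 26.8 and 26.1 in WT nontumor. Tumor libraries were above nontumor libraries in both genotypes, by 0.81 in WT (SE 0.263, limma adjusted p = 0.0189), with 0.36 in B-EBi3- not past the threshold (SE 0.263, limma adjusted p = 0.301). All of its 31-base words also occur in Gm20634, an annotated transcript of the same locus, so its own reads cannot be told apart from reads of that model. The WT call was lost without WT tumor replicate 1 (adjusted p = 0.0796) or 2 (0.0706) or WT nontumor replicate 2 (0.0559). The next H3 genes by level, Hist2h3c2 and Hist1h3a, had 5.22 and 3.67, and 0.870 and 4.58, in B-EBi3- tumor. In B-EBi3- nontumor they had 17.9 and 2.55, and 8.94 and 6.37. In WT tumor they had 6.35 and 1.57, and 0 and 0.786, and in WT nontumor 3.35 and 5.49, and 6.71 and 4.11. Hist1h3a was thus lowest in WT tumor, but on few reads: 0 and 1 there, and 1 and 5 in B-EBi3- tumor. Hist2h3c2 stood out in a single B-EBi3- nontumor library.

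The H4 genes, which encode the same protein, showed the widest split. Hist4h4 (chr6:136801553-136804415), outside the large clusters and with the longest annotated transcript of the tested members, had 181 and 159 normalized counts in B-EBi3- tumor and 116 and 102 in B-EBi3- nontumor. It had 301 and 337 in WT tumor and 90.5 and 75.4 in WT nontumor. Tumor libraries were above nontumor libraries in both genotypes, and the WT tumor libraries were highest of all. It rose by 0.63 in B-EBi3- (SE 0.16, limma adjusted p = 0.0208) and by 1.93 in WT (SE 0.16, limma adjusted p = 7.98e-06). The B-EBi3- call was lost without B-EBi3- tumor replicate 1 (adjusted p = 0.15) or 2 (0.0884), or B-EBi3- nontumor replicate 2 (0.107). Hist1h4i did the reverse: it had 117 and 99.0 in B-EBi3- tumor and 230 and 227 in B-EBi3- nontumor, and 42.9 and 39.3 in WT tumor and 191 and 281 in WT nontumor. It fell in B-EBi3- (log2 difference -1.08, SE 0.201, limma adjusted p = 0.00705, and 0.0737 without B-EBi3- tumor replicate 2) and in WT (log2 difference -2.47, SE 0.201, limma adjusted p = 7.23e-06). Hist1h4m had 33.9 and 29.3 in B-EBi3- tumor, 37.0 and 35.7 in B-EBi3- nontumor, 14.3 and 16.5 in WT tumor and 39.1 and 48.0 in WT nontumor. It fell in WT (log2 difference -1.44, SE 0.262, limma adjusted p = 0.000848), and shares 91.7% of its words with Hist1h4n. Hist1h4c, barely above the filter, had 12.2 and 6.42 in B-EBi3- tumor, 11.5 and 15.3 in B-EBi3- nontumor, 1.59 and 2.36 in WT tumor and 21.2 and 10.97 in WT nontumor, and fell in WT (log2 difference -2.47, SE 0.53, limma adjusted p = 0.00221).

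**Figure D3:**
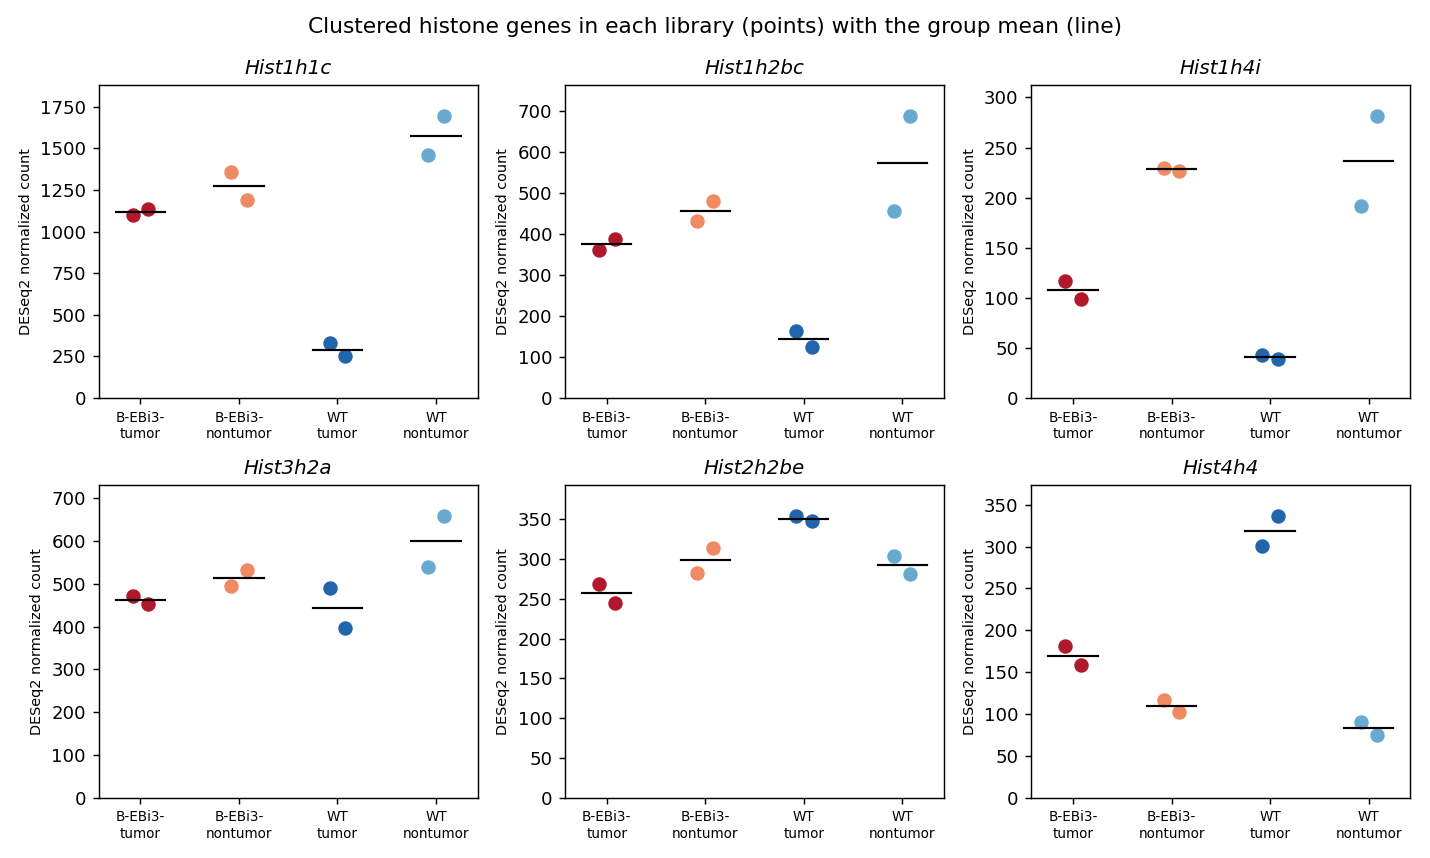
DESeq2 normalized counts (y axes, from 0) of 6 members in each of the 8 libraries (points, by group along the x axes) with group means (lines). Hist1h1c, Hist1h2bc and Hist1h4i are lowest in WT tumor, Hist4h4 is highest there (301 and 337), and Hist3h2a differs little between groups.

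Between the genotypes, members were called in tumor mice and none in nontumor mice. In tumor mice 8 of the 17 tested members were higher in B-EBi3- than in WT (background 31.9%) and 2 were lower (background 28.6%), 10 in all against a background of 60.5%, with a median log2 difference of 0.71 against -0.001 over all genes. The 2 lower members were Hist4h4 (-0.91, SE 0.16, limma adjusted p = 0.00136) and Hist2h2be (-0.45, SE 0.114, limma adjusted p = 0.00841). Hist1h1c was higher in B-EBi3- by 1.96 (SE 0.138, limma adjusted p = 1.97e-05), Hist1h2bc by 1.40 (SE 0.2, limma adjusted p = 0.000459), Hist1h4i by 1.37 (SE 0.201, limma adjusted p = 0.00052) and Hist1h2be by 1.59 (SE 0.368, limma adjusted p = 0.0055). The call of Hist2h2be was lost without B-EBi3- tumor replicate 2 (adjusted p = 0.0805). Of the other higher members, Hist1h2bg had 1.65, Hist1h4m 0.99, Hist1h4c 1.74 and Hist3h2ba 0.71 (limma adjusted p of 0.00674 to 0.0494). Those of Hist1h4m and Hist1h4c were lost without B-EBi3- tumor replicate 1 (0.079 and 0.146) or WT tumor replicate 1 (0.0555 and 0.0877), that of Hist1h4c also without WT tumor replicate 2 (0.0528), and that of Hist3h2ba without any single library but WT tumor replicate 1 (0.0563 to 0.34). This comparison shares the WT tumor libraries with the tumor effect in WT. In nontumor mice limma called 0 members higher (background 0%) and 0 lower (background 0%), of 0% of all genes in either direction. At an unadjusted p under 0.05 there were 1049 genes and 1 member, Hist4h4 (log2 difference 0.39, SE 0.16, limma adjusted p = 0.604). edgeR called 0 genes and DESeq2 21, none of them a member. The next members by p in nontumor mice were Hist1h1c (-0.31, SE 0.138), Hist1h2ac (-0.56, SE 0.277), Hist3h2a (-0.22, SE 0.135) and Hist1h2bc (-0.30, SE 0.2), all with a limma adjusted p of 0.604 to 0.622.

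The tumor effects of the genotypes differed in 8 of the 17 members, 6 with a positive interaction (background 27.5%) and 2 with a negative one (background 25.4%), against a background of 52.9% called in either direction. The positive ones were Hist1h1c, Hist1h2bc (1.69, SE 0.283, limma adjusted p = 0.00158), Hist1h4i (1.39, SE 0.284, limma adjusted p = 0.00393), Hist1h2be (1.75, SE 0.521, limma adjusted p = 0.0206), Hist1h4m (1.24, SE 0.371, limma adjusted p = 0.021) and Hist1h2ac (1.15, SE 0.391, limma adjusted p = 0.0355). All 6 are in the Hist1 cluster on chromosome 13, which supplied 10 of the 17 tested members. The negative ones were Hist4h4 (-1.30, SE 0.226, limma adjusted p = 0.00191) and Hist2h2be. Hist1h1c, Hist1h2bc, Hist1h4i and Hist4h4 kept their interaction call without any 1 library. Hist1h2be lost it without B-EBi3- tumor replicate 1 or 2 or WT tumor replicate 2 (0.0655 to 0.0708), Hist1h4m without B-EBi3- tumor replicate 1 or 2, WT tumor replicate 1 or WT nontumor replicate 2 (0.0531 to 0.0871), and Hist1h2ac without any library but B-EBi3- nontumor replicate 2 and WT nontumor replicate 1 (0.0558 to 0.133).

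The tumor effect in WT was set beside the length of the longest GENCODE transcript. With a limit of 1800 bases, chosen after the values were seen, 4 of the 8 longer members fell and 2 rose in WT (median log2 difference -0.24), while 8 of the 9 shorter ones fell and 0 rose (median -1.98). The same split ran through all tested genes with a length: of 10017 longer genes 33.9% fell and 45% rose in WT (median 0.18), and of 2150 shorter genes 70.3% fell and 14.1% rose (median -0.95). Across genes, which are not independent replicates, Spearman's rho of length with the tumor effect in WT was 0.53 over the 17 members and 0.43 over 12167 genes. In B-EBi3- it was 0.42 over the members and 0.25 over all genes, with medians of 0.24 for the longer and -0.28 for the shorter members. These points share the same libraries and scaling. The split rests on the GENCODE models: 5 of the 8 longer members (Hist1h1e, Hist1h2ac, Hist2h3c1, Hist3h2a and Hist4h4) have a RefSeq gene span under 1800 bases.

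With each library's trend on length and GC content removed, 5 of the 17 members fell and 3 rose in WT, where 12 and 2 had. In that fit 36.5% of the longer genes fell and 39.8% rose in WT, with 42.5% and 30.1% of the shorter genes. The members that fell were Hist1h1c (-1.65, limma adjusted p = 4.03e-06), Hist1h4i (-1.59, limma adjusted p = 9e-05), Hist1h2bc (-1.23, limma adjusted p = 0.000254), Hist1h2be (-1.52, limma adjusted p = 0.00469) and Hist1h4c (-1.65, limma adjusted p = 0.0189). Those that rose were Hist4h4 (1.95, limma adjusted p = 1.24e-05), Hist2h3c1 (1.37, limma adjusted p = 0.00134) and Hist2h2be (0.40, limma adjusted p = 0.00746). The falls of Hist1h1e, Hist1h2ac, Hist1h2bg, Hist1h4m, Hist2h2aa1, Hist3h2a and Hist3h2ba did not pass the threshold in that fit. In B-EBi3- the same members were called, Hist1h4i at -0.97 (limma adjusted p = 0.00746) and Hist4h4 at 0.64 (limma adjusted p = 0.0179). There 18.5% of the longer genes fell and 15.3% rose, with 20.7% and 10.7% of the shorter ones. For genotype in tumor mice, 4 members were then higher and 3 lower, where 8 and 2 had been, with a median of 0.37. Of the longer genes 25.6% were higher and 22.2% lower, with 29.8% and 17.3% of the shorter ones. Hist1h1c (1.41), Hist1h2bc (0.93), Hist1h2be (1.51) and Hist1h4i (0.66) stayed higher in B-EBi3-, and Hist4h4 (-0.89), Hist2h2be (-0.50) and Hist2h3c1 (-0.81, limma adjusted p = 0.0324) were lower. Hist1h2bg (0.89, limma adjusted p = 0.102), Hist1h4c (1.16, 0.1), Hist1h4m (0.03, 0.931) and Hist3h2ba (-0.14, 0.671) were not called. For the interaction, the calls of Hist1h1c, Hist1h2bc, Hist1h2be, Hist2h2be and Hist4h4 held and those of Hist1h4i, Hist1h4m and Hist1h2ac did not. A positive interaction was called in 21.8% of the longer genes and a negative one in 19.3%, with 24.8% and 14.7% of the shorter ones. Why length moved with the tumor effect was not tested.

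**Figure D4:**
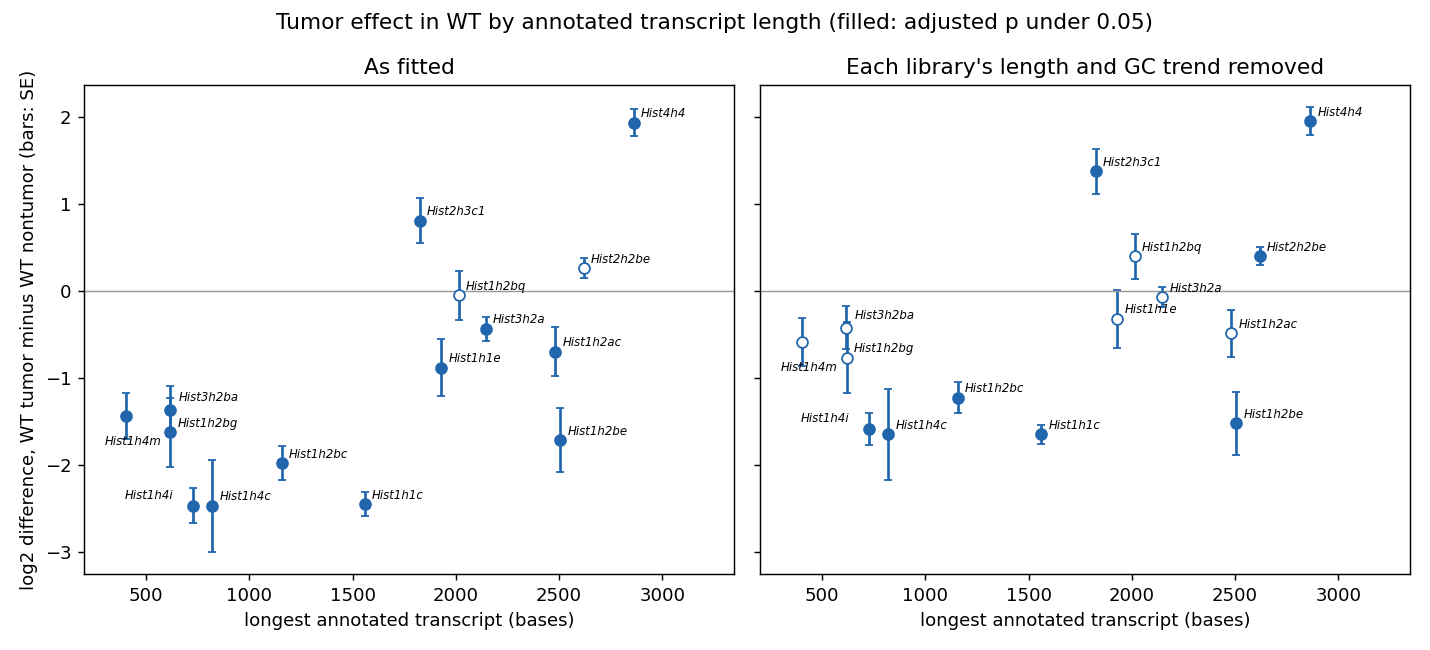
Tumor effect in WT (y axis, log2 difference, WT tumor minus WT nontumor, with SE) against the longest annotated transcript in bases (x axis) for 15 tested members, without the Hist2h2aa pair, as fitted (left) and with each library's length and GC trend removed (right); filled points passed an adjusted p of 0.05. Hist4h4 stays near 1.9 in both panels, while Hist1h1c moves from -2.45 to -1.65 and stays called.

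By annotated end, 5 of the 9 tested members with a poly(A) signal fell and 2 rose in WT (median log2 difference -0.44), and of the 8 without it 7 fell and 0 rose (median -1.53), beside 40.1% lower and 39.6% higher over all tested genes. In B-EBi3- the medians were -0.15 with the signal, where 1 member fell and 1 rose, and -0.20 without it, where none was called, beside 18.5% lower and 14.1% higher over all tested genes. The difference between members with and without the signal was not tested. Of 6 members listed as known to make polyadenylated or replication-independent transcripts (Hist1h1c, Hist1h2bc, Hist2h2be, Hist2h2aa1, Hist3h2a and Hist4h4), 4 fell, the uncertain Hist2h2aa1 among them, and 1 rose in WT, and 0 fell and 1 rose in B-EBi3-, beside the same shares over all genes. Of these 6, Hist1h2bc and Hist2h2aa1 are also among the 8 members without a poly(A) signal in the annotated end. The split by signal is therefore not a split by polyadenylation. The germline members Hist1h1t, Hist1h2aa and Hist1h2ba were all under the filter.

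Promoter motifs differed between the histone classes. RefSeq (GRCm38.p6) gave a promoter, from 250 bases before to 50 after the start, for 61 members. On either strand the CCAAT box stood in 100% of the H1, H2A, H2B and H3 promoters and in 25% of those of H4, against 37.4% of all 32851 promoters. The octamer ATTTGCAT, which the widely expressed factor Oct-1 (Pou2f1) and the B cell factor Oct-2 (Pou2f2) bind, stood in 7 of 18 H2A and 6 of 15 H2B promoters and in 0 of H1, H3 and H4, against 1.7% of all promoters. The TATA box letters TATAAA stood in 57.4% of the members' promoters against 13.6% of all. The 160 bases before the start are given 5′ to 3′ for Hist1h1c, the member with the smallest p for the tumor effect in WT, for Hist4h4, which rose, and for Hist1h2bg, which holds all of these motifs; motifs are in capitals.
Hist1h1c, chr13:23738647-23738806, plus strand: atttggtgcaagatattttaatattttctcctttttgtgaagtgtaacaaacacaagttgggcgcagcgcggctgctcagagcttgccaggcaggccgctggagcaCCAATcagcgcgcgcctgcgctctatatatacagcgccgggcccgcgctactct
Hist4h4, chr6:136804432-136804591, minus strand: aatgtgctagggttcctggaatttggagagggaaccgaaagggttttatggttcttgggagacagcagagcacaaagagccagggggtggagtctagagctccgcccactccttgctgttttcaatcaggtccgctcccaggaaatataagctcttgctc
Hist1h2bg, chr13:23571240-23571399, plus strand: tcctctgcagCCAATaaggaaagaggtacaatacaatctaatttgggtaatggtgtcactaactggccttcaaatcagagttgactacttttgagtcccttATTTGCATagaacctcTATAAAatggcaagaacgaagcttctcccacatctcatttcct
The Hist4h4 stretch held none of these letters; a match is a description of the sequence and no match says only that the letters are not in this window.

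Genes that supply and handle histones moved with the tumor in different directions. NPAT's gene Npat rose in WT to 903 and 1015 normalized counts in WT tumor, against 423 and 383 in WT nontumor (log2 difference 1.25, limma adjusted p = 1.08e-05), with 503 and 557 in B-EBi3- tumor against 454 and 410 in B-EBi3- nontumor (0.29, limma adjusted p = 0.067). Slbp, whose protein binds the stem-loop, had 2427 and 2392 in B-EBi3- tumor against 3584 and 3967 in B-EBi3- nontumor, and 2064 and 2008 in WT tumor against 3480 and 3933 in WT nontumor. Slbp fell in both, by 0.65 in B-EBi3- (limma adjusted p = 0.00131) and 0.86 in WT (limma adjusted p = 1.85e-05), and the interaction was not called (0.22, limma adjusted p = 0.153). E2f1, a factor of S phase entry, fell by 1.25 in B-EBi3- (limma adjusted p = 0.00308) and 1.52 in WT (limma adjusted p = 9.14e-05). Of 16 listed transcription factors and cell cycle genes 4 rose and 5 fell in B-EBi3-, and 9 rose and 5 fell in WT. Over all tested genes 14.1% rose and 18.5% fell in B-EBi3-, and 39.6% rose and 40.1% fell in WT. In WT Pou2f1 rose by 2.20 and Pou2f2 by 2.10, and the cyclin E genes Ccne1 and Ccne2, whose kinase activates NPAT, fell by 1.54 and 2.97 (limma adjusted p of 2.78e-07 to 3.57e-06 for these 4).

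The S phase genes fell in both genotypes, where 18.5% (B-EBi3-) and 40.1% (WT) of all tested genes fell and 14.1% and 39.6% rose. Of 26 genes of DNA replication 25 fell in B-EBi3- (median log2 difference -1.02) and 25 fell in WT (median -1.46), with 0 higher in either. Rrm2, a subunit of ribonucleotide reductase, had 952 and 967 normalized counts in B-EBi3- tumor against 6022 and 5252 in B-EBi3- nontumor, and 522 and 567 in WT tumor against 4921 and 5602 in WT nontumor. Of 16 genes of G2 and mitosis 14 fell and 1 rose in B-EBi3-, and 12 fell and 3 rose in WT. Mki67, the Ki-67 proliferation antigen and 1 of the 3 that rose in WT, had 551 and 581 in B-EBi3- tumor against 859 and 661 in B-EBi3- nontumor (log2 difference -0.41, limma adjusted p = 0.0476, lost without B-EBi3- tumor replicate 1 or 2, B-EBi3- nontumor replicate 1 or WT tumor replicate 1 or 2, 0.0588 to 0.209), and 1282 and 1523 in WT tumor against 497.5 and 460 in WT nontumor (1.54, limma adjusted p = 1.12e-05).

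The histone genes outside the clusters, mostly replacement variants that do not depend on replication, fell in WT as a list. Of 14 listed 10 were tested, and all 10 fell in WT (median log2 difference -1.26). In B-EBi3- 4 of the 10 fell (median -0.44). Over all tested genes 40.1% fell in WT and 18.5% in B-EBi3-. H2afz, the gene of H2A.Z, had 6861 and 6747 normalized counts in B-EBi3- tumor against 11680 and 13010 in B-EBi3- nontumor, and 3468 and 3033 in WT tumor against 11840 and 15830 in WT nontumor. It fell by 0.86 in B-EBi3- (limma adjusted p = 0.0031) and 2.08 in WT (limma adjusted p = 2.29e-06). H2afx, the histone phosphorylated at DNA breaks, fell by 0.73 in B-EBi3- (limma adjusted p = 0.0257, and 0.121 to 0.153 without B-EBi3- tumor replicate 1 or 2 or B-EBi3- nontumor replicate 2), with -1.60 in WT (limma adjusted p = 7.47e-05). The H3.3 genes H3f3a and H3f3b fell in WT by 0.87 and 0.75 (limma adjusted p = 5.09e-05 and 2.8e-05), a direction that turned for H3f3a under quantile normalization (0.50, adjusted p = 6.35e-05). H1f0, the linker histone of non-dividing cells, fell by 1.87 in WT (limma adjusted p = 3.29e-05), with -0.15 in B-EBi3- (limma adjusted p = 0.579).

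Of 22 genes of histone pre-mRNA 3′ end processing 1 rose and 6 fell in B-EBi3-, and 11 rose and 9 fell in WT, where the Sm protein genes Snrpg, Snrpe, Snrpf and Snrpd3 had the smallest p-values, with log2 differences of -1.64, -1.60, -1.45 and -1.01. Of 10 genes of histone mRNA decay 3 rose and 1 fell in B-EBi3-, and 7 rose and 3 fell in WT (median log2 difference 1.08). Zcchc11, a uridylyltransferase, rose by 2.22 and Smg1, a kinase of RNA surveillance, by 2.53 in WT. Of 14 genes of the nuclear exosome and of poly(A) RNA decay 2 rose and 0 fell in B-EBi3-, and 6 rose and 7 fell in WT. Among all tested genes 14.1% rose and 18.5% fell in B-EBi3-, and 39.6% rose and 40.1% fell in WT. The processing and exosome lists lay near these shares in WT. Of 22 histone chaperone genes 2 rose and 10 fell in B-EBi3-, and 7 rose and 12 fell in WT: Mcm2, Chaf1a, Chaf1b and Asf1b, which act at the replication fork, fell in B-EBi3- with log2 differences of -1.103, -1.12, -1.45 and -1.21.

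**Figure D5:**
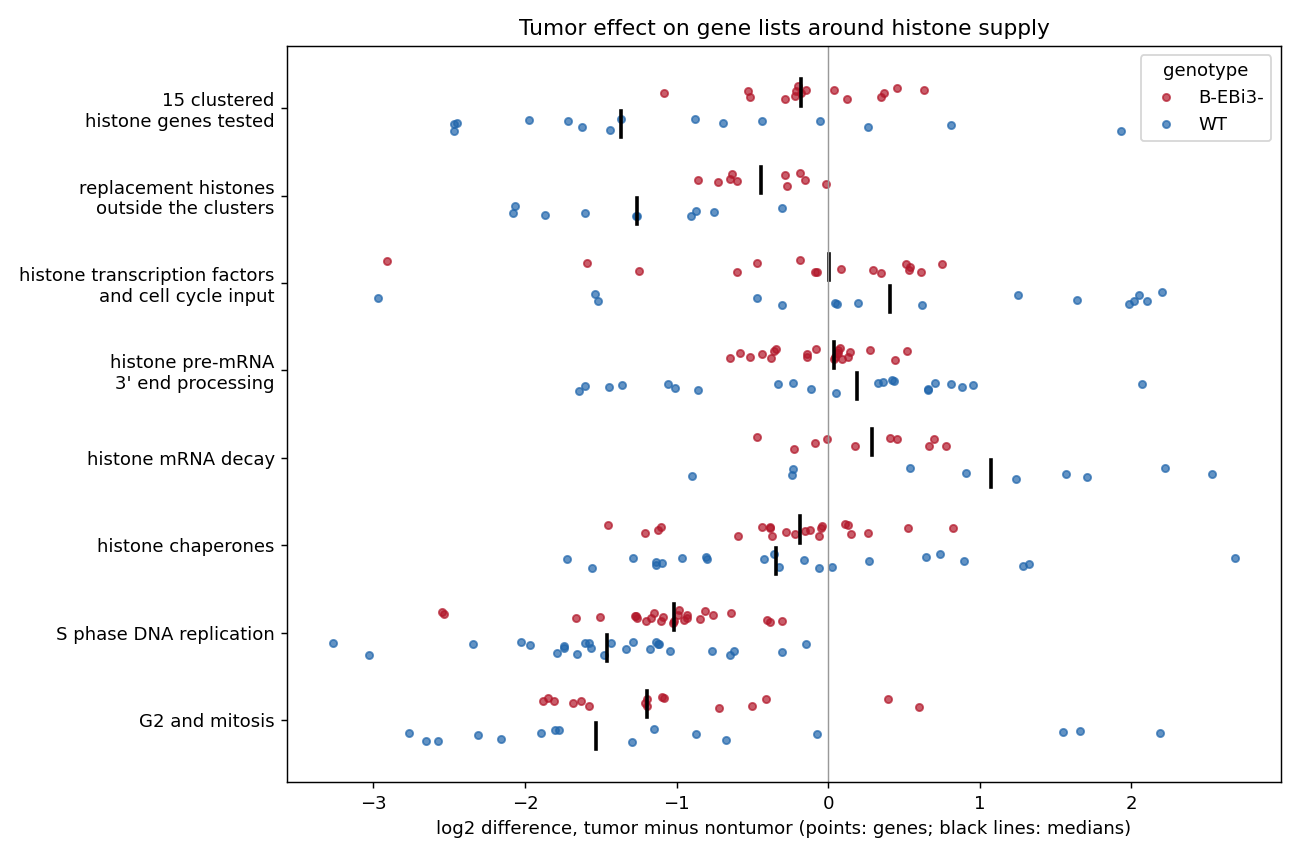
Tumor effect (x axis, log2 difference, tumor minus nontumor) for each tested gene (points) of 15 clustered histone genes, without the Hist2h2aa pair, and of 7 lists (rows), in B-EBi3- (red) and WT (blue); black lines are medians. The DNA replication list lies below 0 in both genotypes (medians -1.02 and -1.46), while the histone mRNA decay list lies mostly above 0 in WT (median 1.08).

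Markers of other cell types also moved with the tumor groups. Beside them, 18.5% of all tested genes fell and 14.1% rose in B-EBi3-, and 40.1% fell and 39.6% rose in WT. The 14 tested erythroid markers fell in both genotypes, 14 of 14 in each, and took 0.322 and 0.332% of reads in B-EBi3- tumor, 1.199 and 1.74% in B-EBi3- nontumor, 0.132 and 0.0983% in WT tumor and 0.749 and 0.686% in WT nontumor. The monocyte and macrophage markers fell in 10 of 11 genes in B-EBi3- and 11 of 11 in WT, with 0.209 and 0.206% of reads in B-EBi3- tumor, 0.309 and 0.380% in B-EBi3- nontumor, 0.0445 and 0.0391% in WT tumor and 0.326 and 0.345% in WT nontumor. The 7 granulocyte markers fell in 5 of 7 in B-EBi3- and 7 of 7 in WT. Of 7 plasma cell markers 6 rose and 1 fell in B-EBi3-, and 2 rose and 4 fell in WT. All 6 NK cell, 5 of 6 dendritic cell, 5 of 6 platelet and megakaryocyte and 6 of 9 T cell markers fell in WT, where none of these 4 lists had a marker that rose. In B-EBi3- 0 NK cell, 3 dendritic cell, 0 platelet and 1 T cell marker fell and 1 T cell marker rose. The summed NK cell markers took 0.00896 and 0.00868% of reads in B-EBi3- tumor, 0.00792 and 0.00558% in B-EBi3- nontumor, 0.00264 and 0.00219% in WT tumor and 0.00711 and 0.00559% in WT nontumor. The B cell markers went the other way: 2 of 8 rose and 0 fell in B-EBi3-, and 5 rose and 2 fell in WT. They took 1.01 and 1.015% of reads in B-EBi3- tumor, 0.893 and 0.835% in B-EBi3- nontumor, 1.196 and 1.196% in WT tumor and 0.790 and 0.757% in WT nontumor. No tested marker of the B cell, erythroid, monocyte and granulocyte lists was at 0 in any library. In WT 12 of 17 tested clustered histone members were lower in the tumor group, as were the erythroid, monocyte, granulocyte and NK cell lists, while B cell markers were mostly higher; the part of these markers in the result was not tested.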

How the data were processed

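RNA was sequenced from splenic naive B cells in 8 libraries, prepared with a stranded mRNA kit, per the labels' protocols. Salmon, DESeq2 and the build mm10 are named in the submitters' processing notes, without versions. The deposited signal is the authors' normalized count, 1 value per gene symbol and library, for 23302 symbols. Divided by the step between values, 100% came out as whole reads within 0.01, which gave reads and depth. Genes with a mean of at least 10 (13011) were fitted as log2(value + 1) with limma 3.58.1 in R 4.3.3, with 1 mean per group, all 8 libraries and a trended prior (4 residual and 4.64 prior degrees of freedom). Tests are two-sided, with Benjamini-Hochberg adjustment over all tested genes within each of the 5 comparisons. Alternatives were edgeR 4.0.16 and DESeq2 1.42.0 count tests on the reads recovered above, and other filters, scalings, pseudocounts and libraries. Motifs and poly(A) signals are letter searches. On simulated data with 200 of 13011 genes changed, the limma fit was tested for recovery and sign. Far fewer genes changed there than were called for the tumor effects, so it gives no error rate for these comparisons. Full values were given for the 3 highest members of each class and the 5 with the smallest p in each comparison; up to 4 genes by p, and 10 preset genes, were named from the context lists. Members and lists were chosen with earlier results of these data known. The WT titles share numbers 7 and 8, which were not taken as pairs in the main fit. Across genes, the difference between libraries 7 and 8 in WT tumor correlated at -0.256 with that in WT nontumor.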

Additional observations from a re-analysis of the deposited data

Results flagged for a closer look

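For 8 clustered histone members the tumor effect differed between the genotypes by the interaction test (tumor effect in B-EBi3- minus that in WT, limma adjusted p under 0.05). It was 2.26 for Hist1h1c (adjusted p = 0.000135), 1.69 for Hist1h2bc (0.00158), 1.39 for Hist1h4i (0.00393), 1.75 for Hist1h2be (0.0206), 1.24 for Hist1h4m (0.021) and 1.15 for Hist1h2ac (0.0355). All 6 fell in WT, and their log2 differences in B-EBi3- lay between -1.08 (Hist1h4i, called) and 0.45 (Hist1h2ac, not called). It was -1.30 for Hist4h4 (0.00191), which rose more in WT, and -0.48 for Hist2h2be (0.0342). Sex and title prefix of the WT tumor libraries cannot be told apart from these differences.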

How the results depend on the processing

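The falls of Hist1h1c, Hist1h2bc and Hist1h4i and the rise of Hist4h4 in WT kept direction and call in all 24 alternatives run for that comparison. The 14 members called in WT became 28 of 62 without a filter, 7 of 10 with a mean of at least 50 and 8 with the length and GC trend removed; the 10 of the genotype effect in tumor mice became 5 with a mean of at least 50; the 8 of the interaction became 4 by DESeq2 and 5 with the trend removed. In B-EBi3-, 4242 genes became 2375 without a trend in the prior. With 1 library left out, which leaves a group of 1 assumed to vary like the others, the calls were 756 to 5313 genes and 0 to 3 members for the tumor effect in B-EBi3-, 9170 to 10603 genes and 10 to 15 members in WT, 5526 to 8321 genes and 7 to 9 members for genotype in tumor mice, 0 to 5 genes and 0 members in nontumor mice, and 4944 to 7495 genes and 4 to 8 members for the interaction; the lowest B-EBi3- gene counts came without B-EBi3- tumor replicate 1 (788) or 2 (756) or B-EBi3- nontumor replicate 2 (1213), and the member low of the interaction without B-EBi3- tumor replicate 1 or 2. DESeq2 called 21 genes in nontumor mice and 5978 for the interaction. Quantile normalization turned H3f3a to 0.501 for the tumor effect in WT, -0.359 for genotype in tumor mice and -0.387 for the interaction; removing the trend turned genotype in tumor mice to -0.136 for Hist3h2ba and -0.044 for H2afx. The cause was not tested. The histone share of reads (0.0124, 0.0129, 0.00882 and 0.0140% in B-EBi3- tumor, B-EBi3- nontumor, WT tumor and WT nontumor) became 0.0149, 0.0162, 0.00971 and 0.0180% over reads outside ribosomal protein and histone genes, and 0.00358, 0.00434, 0.00307 and 0.00434% without the top member of each class. The title number as a replicate block gave 10158 genes and 12 members in WT, and the crossed numbers, added after seeing the data, 10519 genes and 14 members. Low read numbers limit Hist1h4c (74 reads over all libraries), Hist1h2be (110), Hist1h1e (132) and the untested members.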
